A study of Mus musculus with 2 samples.

Results

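The 10 genes described here are Gfap, Vim, Aqp4, Slc1a2, Slc1a3, Gja1, Gjb6, Aldh1l1, Aldoc and Sox9, which are used together to recognise astrocytes. They were found by gene name among the probes that are not controls, 10 of the 37074 gene names on the array, and each of the 10 had at least 1 probe well above background on both arrays. The study measured total RNA of the olfactory bulb of 1 odor-enriched mouse, labelled as kept under odor-enriched conditions and subjected to odor stimulation, and of 1 control mouse kept under standard odor conditions. Each sample was labelled with Cy3 and hybridised to its own Agilent mouse expression array. The sources used here name no strain, age or sex of the mice, and no odors, doses or length of exposure. The tissue label speaks of neurons of the bulb and the source label of the bulb as a whole, and no dissociation or sorting is described. With 1 array per group there is no replicate and no test between the groups, so every difference below compares these 2 samples and not the 2 conditions.

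Astrocytes are glial cells that take up glutamate and potassium from around synapses, supply neurons with metabolites, and cover blood vessels with processes called endfeet. They are joined into a network by gap junctions, and in injured or inflamed tissue they become reactive, a state in which Gfap and Vim are usually raised. In the bulb astrocytes lie around the glomeruli and through the deeper layers, and Gfap is also made by the olfactory ensheathing cells, which are glia that enclose the incoming sensory axons. In RNA from whole tissue, fewer cells of a type and less RNA per cell cannot be told apart.

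Levels are log2 signals relative to the 75th percentile of the array, a difference is odor enriched minus control, and a gene's value averages those of its probes that stood well above background in both samples. In all, 23872 genes could be compared in this way. In the odor-enriched bulb 11.5% of them exceeded the control by 2-fold or more and 5.52% lay 2-fold or more below it, with a median difference of 0.0016. The share of spots well above background was 67.6% on the odor-enriched array and 73.7% on the control array, and the signal at the 75th percentile was 277 and 355. Different probes of 1 gene differed with a pooled SD of 0.63 over the 8234 genes with more than 1 measured probe. The scanner's error of a probe's difference, which the scanner software supplies, was 0.20 for most probes described here. It was nearly the same at all but dim signals. It was also larger than the SD between repeat spots of Aldoc probes (0.028 and 0.068). All these errors concern the arrays and say nothing of the spread between mice. General neuron markers (16 of 16) and all 10 astrocyte genes were measured on both arrays, but so were most markers of every other cell type listed, so being measured does not check the labelled tissue.

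As a group the 10 genes lay below 0, but they did not move alike. Gfap was 4.36-fold lower in the odor-enriched bulb and Aldoc 2.004-fold lower, 8 of the 10 genes had a difference below 0, and none was at least 2-fold higher. Of all genes 49.9% lay below 0, and of the brightest 25%, which hold 9 of the 10, 62.8%. The median difference of the 10 was -0.54, beside 0.0016 for all genes. Of these bright genes 6.5% were lower by 2-fold or more, 8.78% were higher by as much, and the median was -0.18. Vim and Aqp4 were the members above 0. The array carried 29 probes for the 10 genes. Of the 21 probes measured on both arrays, 17 were lower in the odor-enriched bulb and 4 higher, where 50.7% of all measured probes were lower. At least 2-fold lower were 5 of these 21 probes, against 6.51% of all measured probes, and at least 2-fold higher was 1, against 11.6%. In either direction these were 6 of the 21, beside 18.1% of all measured probes.

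**Figure D1:**
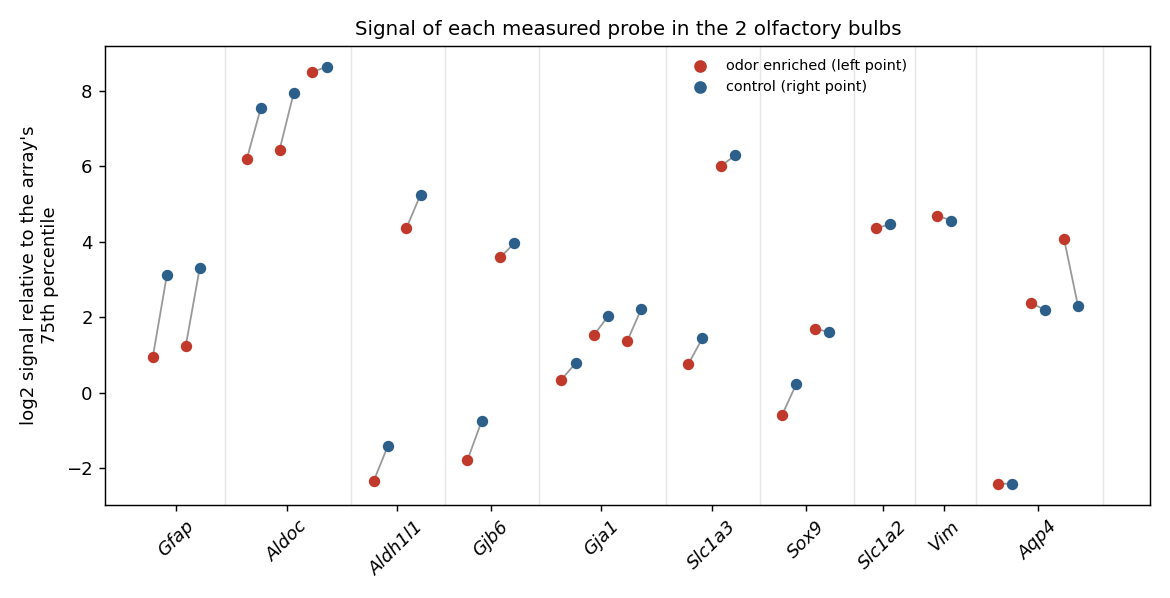
Level of each measured probe of the 10 genes (vertical axis, log2 signal minus the 75th percentile of its array) in the odor-enriched bulb on the left of each pair and in the control bulb on the right, with a line joining the points of 1 probe. Both Gfap probes drop steeply on the odor-enriched side, to 1.23 and 0.94 against 3.31 and 3.12 in the control, while the lines of Vim and Slc1a2 are nearly level and 1 line of Aqp4 runs the other way.

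Gfap, the intermediate filament protein by which astrocytes are most often stained, stood lowest of the 10. Its level was 1.09 in the odor-enriched bulb and 3.21 in the control bulb, a difference of -2.13. Only 0.415% of all measured genes had a lower difference. The gene has a pair of probes, each against another splice variant, and their last 30 bases are shown because the result rests on both sequences. The first lies at chr11:102751813-102751872 and the second at chr11:102748864-102748923 (mm9, minus strand).
Gfap variant 1 probe: aggttaggttgtactaatagagctagccta
Gfap variant 2 probe: cagcctggtggctagtgccttcatattaga
The variant 1 probe had a signal of 473 in the odor-enriched bulb and 2478 in the control bulb, a difference of -2.08. The variant 2 probe had 388 in the odor-enriched bulb and 2166 in the control bulb, a difference of -2.17. The probes of both variants were thus lower by nearly the same amount. Their range of 0.09 was small, since 7.65% of the genes with several probes had a smaller one. Gfap was also the only member of which every probe was at least 2-fold lower, a property of 142 such genes on the array (1.72%). The spots around the variant 2 probe had a median difference of 0.48, above 0, and those around the variant 1 probe 0.0025.

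Gfap transcription is known to be driven in part by STAT3, which binds paired TTC and GAA letters. The sequence around the transcription start of Gfap is shown because of this and because Gfap stood furthest from 0. It is from RefSeq at chr11:102897171-102897450 (GRCm38.p6, minus strand), 250 bases before the start and 30 after it, with the match to the motif in capitals. The match begins at position -2 from the start, so most of it lies past the start.
Gfap promoter: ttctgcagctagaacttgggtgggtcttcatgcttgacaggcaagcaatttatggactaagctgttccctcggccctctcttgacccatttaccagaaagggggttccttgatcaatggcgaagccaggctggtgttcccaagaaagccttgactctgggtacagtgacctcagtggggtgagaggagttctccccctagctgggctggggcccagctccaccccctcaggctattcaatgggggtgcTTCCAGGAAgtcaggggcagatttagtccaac
The motif TTCCNGGAA, a stricter form of TTCNNNGAA, was searched on both strands in windows of 300 bases. It occurred in 1.15% of 32851 promoters and in 2 of the 9 promoters listed for these genes, that of Gfap and one of the pair listed for Aldoc. The wider TTCNNNGAA occurred in 8.30% of all promoters and in 3 of the 9, those of Gfap, Aldoc and Slc1a3. The letters TGANTCA, bound by AP-1 factors, occurred in 7.81% of all promoters and in 1 of the 9, that of Gja1. The palindromic site of the nuclear factor I family occurred in 12 of the 32851 promoters and in 0 of the 9. These matches describe the letters only. Stat3 itself had a level of -0.12 in the odor-enriched bulb and -0.87 in the control bulb (difference 0.74, with its 3 probes from 0.04 to 1.52).

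Vim, the second filament protein of astrocytes and also one of endothelial and other cells, differed little. Its single probe (chr2:13504232-13504291, mm9, plus strand) had a signal of 5227 in the odor-enriched bulb and 5921 in the control bulb, and after scaling the difference was 0.13. With each array centred on its median it was -0.04, so Vim has no settled direction. The 12 genes of intermediate filaments and their linkers had a median of -0.22, of which 3 were higher and 2 lower by 2-fold or more, and the median turned to 0.11 with the series matrix values. Furthest below 0 were the neuronal filament genes Prph (-2.75, and -1.32 with the normexp background correction) and Nefh (-1.30, and -0.95 with normexp), and the filament linker Synm (-0.78). Furthest above 0 were the nuclear lamin Lmnb1 (1.67), the muscle filament Des (1.53, and 0.61 with normexp) and Nes (1.01, and 0.86 with normexp), the filament of neural precursors and of endothelial cells. Gfap thus differed from Vim and Nes, with which it shares filaments in reactive astrocytes, by more than 2 log2 units in these samples.

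The metabolic enzymes Aldoc and Aldh1l1 came next after Gfap. Aldoc encodes aldolase C, the brain form of a glycolytic enzyme, and its level was 7.05 in the odor-enriched bulb and 8.05 in the control bulb (difference -1.003, 2.004-fold lower). Its 3 probes lie close together at the end of the transcript and did not give the same answer, so their last 30 bases are shown in order along chromosome 11 (mm9, plus strand), with capitals for a polyadenylation signal, AATAAA.
Aldoc probe at chr11:78139897-78139956: ggccaaatagctatgcagaacagagatatc
Aldoc probe at chr11:78139964-78140023: ttacattgctgtacccgagaccacaggatg
Aldoc probe at chr11:78140198-78140257: gagtacatagcaAATAAAtgagagcaaaac
The first had a signal of 14714 in the odor-enriched bulb and 46930 in the control bulb (difference -1.36). The second had 17655 in the odor-enriched bulb and 61962 in the control bulb (difference -1.51). The third, which carries the polyadenylation signal, had 73443 in the odor-enriched bulb and 100174 in the control bulb (difference -0.14). The first and second probes were thus at least 2-fold lower and the third was near 0. The second and the third are each printed 10 times, with 9 spots usable on both arrays. Single spots gave -1.55 to -1.46 for the second (SD 0.028) and -0.30 to -0.056 for the third (SD 0.068), so the gap between these probes was far wider than the error between spots.

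The third Aldoc probe is among the brightest on the array. Of the 138 measured probes with a signal of 16 log2 units or more on the brighter array, 51.4% were higher by 2-fold or more and 0.725% lower, with a median of 1.02. The 617 probes between 14 and 16 log2 units, where the other Aldoc probes lie, had a median of -0.08. The part of brightness in the gap between the Aldoc probes was not tested. With quantile normalization, which brings the brightest signals of both arrays onto 1 distribution, Aldoc stood at -1.42, and with its brightest probe alone at -0.14. It lay so close to the 2-fold threshold that small steps moved it across: it stood at -0.92 with the percentile over detected probes, -0.86 with cyclic loess, -0.66 with the series matrix values and -0.995 when spots marked as outliers were kept.

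Aldh1l1 encodes the folate enzyme whose promoter is widely used to label astrocytes. Its level was 1.01 in the odor-enriched bulb and 1.91 in the control bulb, a difference of -0.91 (1.87-fold lower). The probe at chr6:90549091-90549150 (mm9, plus strand) had a signal of 4163 in the odor-enriched bulb and 9517 in the control bulb (difference -0.88). The probe at chr6:90550028-90550087 had 39.3 in the odor-enriched bulb and 92.9 in the control bulb (difference -0.93). Both were lower by nearly the same amount, with a range of 0.05, although the dimmer one stood at -0.35 with normexp. Aldh1l1 passed the 2-fold threshold with median centring (-1.08) and with the E1A spike-in scaling (-2.67), and stayed under it with the other settings. Among 9 measured genes of the aldolase and ALDH1 families, Aldoc was the only one at least 2-fold lower, none was at least 2-fold higher, and the median was -0.23. Next after Aldoc and Aldh1l1 came the retinaldehyde dehydrogenase Aldh1a2 (-0.82), while Aldh1a3 stood above 0 (0.82, and 0.44 with normexp).

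The wider set of glycolysis and lactate genes did not share the size of the Aldoc difference. Of 20 genes 1 was at least 2-fold lower, 1 at least 2-fold higher, and the median was -0.27. Lowest were the brain glycogen phosphorylase Pygb (-1.13), the lactate dehydrogenase subunit Ldhb (-0.94) and the phosphofructokinase Pfkm (-0.78). Highest were Slc2a1 (1.14), the glucose transporter of the blood-brain barrier, the other lactate dehydrogenase subunit Ldha (0.63) and the lactate exporter Slc16a3 (0.48). With the series matrix values the median of the list was 0.06.

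Gja1 and Gjb6 encode the main pair of connexins through which astrocytes are coupled, and both were lower. Gjb6 had a level of 0.90 in the odor-enriched bulb and 1.60 in the control bulb (difference -0.70, 1.62-fold lower). Its probe at chr14:57742226-57742285 (mm9, minus strand) had a signal of 2429 in the odor-enriched bulb and 3906 in the control bulb (difference -0.37). Its probe at chr14:57743530-57743589 had 58.5 in the odor-enriched bulb and 147 in the control bulb (difference -1.02, and -0.59 with normexp). Both Gjb6 probes were lower, but the larger difference came from the dimmer of them. Gja1 had a level of 1.08 in the odor-enriched bulb and 1.68 in the control bulb (difference -0.60, 1.51-fold lower).

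All 3 measured Gja1 probes were lower in the odor-enriched bulb, wherever they lay in the transcript. The probe at chr10:56109814-56109873 (mm9, plus strand), near the end, had a signal of 518 in the odor-enriched bulb and 1165 in the control bulb (difference -0.86). The probe listed at chr10:56108488-56108978 had 586 in the odor-enriched bulb and 1027 in the control bulb (difference -0.50). The probe at chr10:56097212-56097271, near the start, had 256 in the odor-enriched bulb and 429 in the control bulb (difference -0.44). A further 5 Gja1 probes, against other or predicted transcripts of the gene, were well above background in the control bulb only. Their signals were 2.50 to 8.16 in the odor-enriched bulb and 7.60 to 10.9 in the control bulb, which is too near the background for a useful bound: the fold could be bounded for 2 of them, at no more than at least 1.07-fold lower.

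Other connexin and pannexin genes were split. Of 23 listed, Gja1 and Gjb6 included, 14 were measured, with a median of 0.13. This median was -0.05 with median centring, and ranged from -0.06 to 0.74 over the settings other than the spike-in scaling. The 12 measured besides these members had a median of 0.53, with 5 higher by 2-fold or more and 1 lower. Gja10 was above background in the control bulb only, and 8 were above background on neither array. The lowest were Gjb2 (-1.01), another astrocyte connexin that is also made by meningeal cells, Panx2 (-0.99, and -0.50 with normexp) and Gjb6. The highest were Gjd3 (2.79, and 1.64 with normexp), Gja4 (2.19), a connexin of arterial endothelium, and Gjc1 (1.18, and 0.94 with normexp), a connexin of vascular smooth muscle. The astrocyte connexins Gja1, Gjb6 and Gjb2 were thus below 0 in these samples, and the vascular Gja4 and Gjc1 above it.

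**Figure D2:**
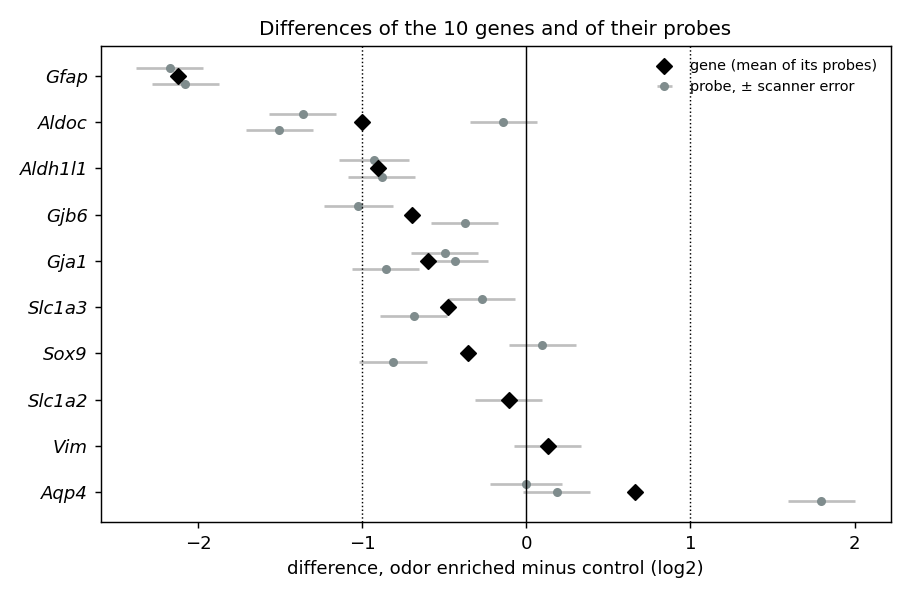
Difference of each of the 10 genes (diamonds) and of each of its measured probes (points, with the scanner's error of the difference as bars), odor enriched minus control in log2 units. Dotted lines mark 2-fold. The Gfap and Aldh1l1 probes lie within 0.09 and 0.05 of each other, whereas those of Aldoc span 1.37 and those of Aqp4 1.80.

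Slc1a2 and Slc1a3 encode the transporters that clear glutamate from the extracellular space, and neither approached 2-fold. Slc1a3 had a level of 3.39 in the odor-enriched bulb and 3.87 in the control bulb (difference -0.48, 1.39-fold lower). Its probe at chr15:8584747-8584806 (mm9, minus strand) had a signal of 13091 in the odor-enriched bulb and 19622 in the control bulb (difference -0.27), and that at chr15:8630573-8630632 had 340 in the odor-enriched bulb and 678 in the control bulb (difference -0.69). Both were lower, and another Slc1a3 probe, at 5.76 in the odor-enriched bulb and 1.62 in the control bulb, was above background on neither array. Slc1a2 was measured by 1 probe (chr2:102617706-102617765, plus strand), with a signal of 4138 in the odor-enriched bulb and 5535 in the control bulb. After scaling its difference was -0.11, smaller than the scanner's error of 0.20, and it turned to 0.09 with cyclic loess and 0.22 with the series matrix values. Its second probe, at 3.87 in the odor-enriched bulb and 0.98 in the control bulb, was not well above background on either array. Admitting such probes turned Slc1a2 to 1.09 and Slc1a3 to 0.39.

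The 15 genes of the SLC1 family and of the glutamine cycle had a median of -0.30, and 1 gene in each direction reached 2-fold. The lowest were the neutral amino acid transporter Slc1a5 (-2.09), the glutaminase Gls2 (-0.85, and -0.51 with normexp) and the glutamine transporter Slc38a1 (-0.68, over 4 probes from -1.31 to 0.39). Among the highest were the glutamine transporter Slc38a5 (2.25) and the serine and alanine transporter Slc1a4 (0.85). Glul, the glutamine synthetase of astrocytes, stood at -0.47; it and the genes Kcnj10 and S100b named further on were picked after their values were seen. With the series matrix values the median of this list was 0.03.

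Sox9, a transcription factor that keeps glial identity and marks astrocyte nuclei in the adult brain, had a level of 0.56 in the odor-enriched bulb and 0.91 in the control bulb (difference -0.36, 1.28-fold lower). Its pair of probes split, and their last 30 bases are shown for that reason (chromosome 11, mm9, plus strand).
Sox9 probe at chr11:112646642-112646701: tcagggctctactccaccttcacttacatg
Sox9 probe at chr11:112647560-112647619: gttcttggatttcaagagtagctgccttaa
The first had a signal of 134 in the odor-enriched bulb and 292 in the control bulb (difference -0.81). The second, 918 bases further along the same transcript, had 655 in the odor-enriched bulb and 759 in the control bulb (difference 0.10). With the brighter probe alone Sox9 was therefore above 0, and its direction rests on the dimmer probe.

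The 20 astroglial transcription factors had a median of -0.33, with 3 at least 2-fold lower and 1 at least 2-fold higher. The lowest were Sox10 (-1.80), a factor of oligodendrocytes and olfactory ensheathing cells, Id4 (-1.16) and the Notch target Hes5 (-1.14). The highest were Id1 (1.71), a target of BMP signalling that is also strong in endothelial cells, the Notch target Hes1 (0.85, and 0.58 with normexp) and Stat3 (0.74, and 0.28 with normexp). Members of the same factor families thus stood on both sides of 0, and with the series matrix values the list's median was 0.0027.

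Aqp4, the water channel of astrocyte endfeet, was the member furthest above 0. Its level was 1.35 in the odor-enriched bulb and 0.69 in the control bulb (difference 0.66, 1.58-fold higher). The value rests on 1 of its 3 measured probes. The probe that starts at base 959 of the transcript had a signal of 3416 in the odor-enriched bulb and 1220 in the control bulb (difference 1.80). The probe that starts at base 4974 of the same transcript had 1047 in the odor-enriched bulb and 1142 in the control bulb (difference 0.19). A probe against a predicted variant had 37.7 in the odor-enriched bulb and 46.8 in the control bulb (difference -0.0023). The first was at least 2-fold higher and the other two were near 0, and 92.1% of the genes with several probes had a smaller range than the 1.80 of Aqp4. Another Aqp4 probe was above background on neither array.

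Probes nearer the start of a transcript tended to stand higher in the odor-enriched bulb over the array as a whole. Among 3901 transcripts with 2 measured probes at least 500 bases apart, the probe nearer the 5′ end had a median difference of 0.08 and the one nearer the 3′ end -0.20. The gap between them, 5′ minus 3′, had a median of 0.25, with quartiles of -0.21 and 0.74, and was above 0 in 64.1%. For Aqp4 the gap was 1.61 and for Gja1 0.42, whereas for Sox9 it was -0.91. The part of probe position in the differences of Aqp4 and of the other members, also those below 0, was not tested.

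Genes of the endfoot and its water channels did not follow Aqp4 as a set. Of 20 listed aquaporin and endfoot genes 19 were measured, with 1 at least 2-fold higher, 2 at least 2-fold lower and a median of -0.17, which turned to 0.16 with the series matrix values. The highest were the water channels Aqp2 (1.32), Aqp4 (0.66) and Aqp8 (0.62, and 0.35 with normexp). The lowest were Aqp1 (-1.81), Aqp5 (-1.30, but -0.28 with normexp) and Aqp9 (-0.67, and -0.25 with normexp). Kcnj10, the potassium channel that sits with Aqp4 in the endfoot membrane, stood at -0.64.

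**Figure D3:**
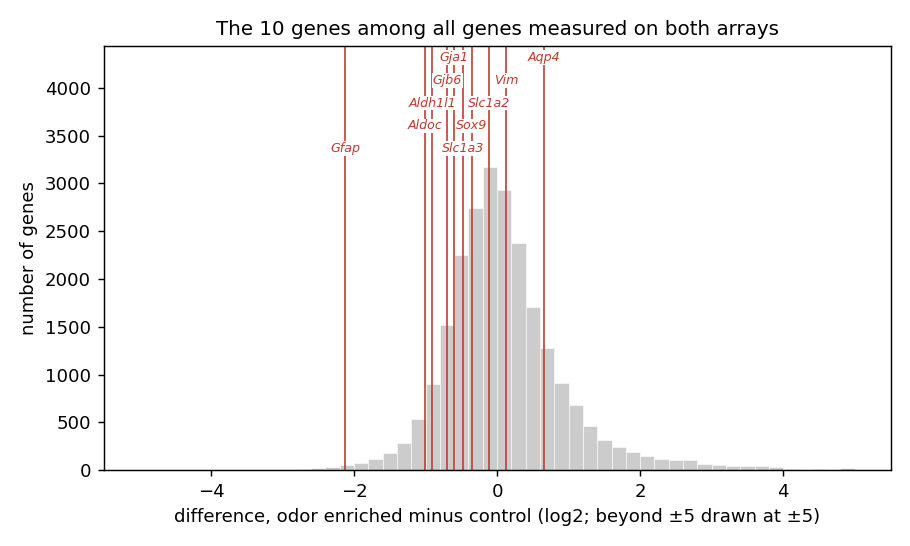
Histogram of the difference of all 23872 genes measured on both arrays (odor enriched minus control, log2 units; vertical axis, number of genes), with the 10 genes marked by lines. Gfap at -2.13 lies in the far lower tail, below all but 0.415% of genes, Aldoc at -1.003 below all but 5.47%, and Aqp4 at 0.66 lies above 81.0% of genes.

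Other genes known to be enriched in astrocytes lay mostly below 0, with a median nearer to that of bright genes in general (-0.18) than the members had. All 30 listed genes were measured, 22 had a difference below 0, beside 62.8% of the brightest 25% of genes, 3 were at least 2-fold lower and 1 at least 2-fold higher, and the median was -0.33. The lowest was Agt, angiotensinogen, with a level of 2.05 in the odor-enriched bulb and 3.81 in the control bulb (difference -1.76). Next came the tweety family membrane protein Ttyh1 (-1.15, both probes at least 2-fold lower) and the acyl-CoA synthetase Acsbg1 (-1.04), while Kcnj10 and the calcium-binding protein S100b stood at -0.64 and -0.44. The highest was Slco1c1, a thyroid hormone transporter that is also strong in brain endothelium, with a level of 2.35 in the odor-enriched bulb and 0.40 in the control bulb (difference 1.94, with probes at 1.74 and 2.15). Next came the phagocytic receptor Mertk (0.26) and Gpr37l1 (0.26), far from 2-fold. The median of this list was 0.0050 with the series matrix values, where the median of all genes lay 0.33 higher.

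Genes reported in mouse to mark reactive astrocytes were split, with Gfap at the low end. Of 12 measured pan-reactive genes 3 were at least 2-fold higher, 3 at least 2-fold lower, and the median was 0.20. Beside Gfap, the low genes were the protease inhibitor Serpina3n, at 0.85 in the odor-enriched bulb and 2.97 in the control bulb (difference -2.12), and the iron carrier Lcn2, at 0.79 in the odor-enriched bulb and 2.04 in the control bulb (difference -1.25). The high genes were the chemokine Cxcl10 (3.68, and 2.68 with normexp), the heat shock protein Hspb1 (2.39) and the adhesion receptor Cd44 (1.45, and 0.87 with normexp). Of the 12 genes 5 lay below 0, namely Gfap, Serpina3n, Lcn2, S1pr3 (-0.80) and Aspg (-0.32), and 7 lay above it. Aspg turned to 0.01 with the series matrix values.

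Both other lists of reactive genes lay above 0 by their medians. Of 11 measured A1-type genes, defined in mouse by a response to lipopolysaccharide, 7 were higher by 2-fold or more and 1 lower, with a median of 1.75. The highest were the interferon-induced GTPases Iigp1 (4.08) and Gbp2 (4.07) and the class I molecule H2-D1 (2.56), and the lowest Fkbp5 (-1.64), a target of glucocorticoids, Amigo2 (-0.57, and -0.01 with normexp) and Ggta1 (0.33). Of 9 measured A2-type genes, defined by ischaemia, 4 were higher by 2-fold or more and 1 lower, with a median of 0.74. The highest were the cyclooxygenase Ptgs2 (4.30, and 2.81 with normexp), the cytokine Clcf1 (2.65) and Tm4sf1 (2.43), and the lowest the lipid kinase Sphk1 (-1.87), Cd14 (-0.20, which turned to 0.13 with the series matrix values) and S100a10 (0.63). The summed scaled signal of the A1-type genes was 134 in the odor-enriched bulb and 26.0 in the control bulb. That of the A2-type genes was slightly lower in the odor-enriched bulb, at 41.8 against 44.1 in the control bulb. Most genes of both lists are not particular to astrocytes. T and NK cell markers stood higher in the same bulb, 9 of 11 measured at least 2-fold, with a median of 3.83 (2.39 with normexp) and a summed scaled signal of 27.1 in the odor-enriched bulb and 4.52 in the control bulb. Their part in the reactive lists was not tested.

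Markers of 2 cell types that come with the olfactory nerve stood below 0 together with Gfap. Of 16 olfactory ensheathing cell markers 10 were at least 2-fold lower, none at least 2-fold higher, and the median was -1.15, with a summed scaled signal of 368 in the odor-enriched bulb and 733 in the control bulb. The lowest were Nell2 (-2.18), the neural crest factor Foxd3 (-2.12) and Sox10 (-1.80), and the highest Sulf2 (-0.21), Serpine2 (-0.19) and Cdh6 (0.46). Of 10 measured olfactory sensory neuron markers 6 were at least 2-fold lower, with a median of -1.43 (-0.61 with normexp) and a summed scaled signal of 121 in the odor-enriched bulb and 496 in the control bulb. Another 2 of them, Cnga4 and Rtp1, were above background in the control bulb only. The part of ensheathing cells in the Gfap difference was not tested, and the labels give no way to separate the layers of the bulb.

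Markers of vessel cells stood higher in the odor-enriched bulb. Aqp4 (0.66) was also above 0, but through 1 of its 3 measured probes (1.80), with the others at 0.19 and -0.0023. Of 12 endothelial markers 10 were at least 2-fold higher, with a median of 1.87 and a summed scaled signal of 213 in the odor-enriched bulb and 61.6 in the control bulb, and of 10 mural cell markers 7 were, with a median of 1.99. The summed scaled signal of the mural markers differed less, at 81.7 in the odor-enriched bulb and 66.8 in the control bulb. Their part in the values of Aqp4, Vim, Nes and Slco1c1 was not tested. The remaining lists stood on both sides of 0. Of all genes 11.5% were higher and 5.52% lower by 2-fold or more. Oligodendrocyte markers stood at 0.43 by their median (2 of 12 higher by 2-fold or more) and their precursors at 0.70 (4 of 8). Microglia markers stood at -0.13 (1 of 12), which turned to 0.08 with cyclic loess and 0.21 with the series matrix values. Radial glia and stem cell genes stood at 0.02 (2 of 14 higher and 3 lower), which turned to -0.15 with median centring. General neuron markers stood at -0.40 (1 of 16 lower by 2-fold or more), with 12 of 16 below 0. The neuron median thus lay between that of the 10 genes (-0.54) and that of the other astrocyte genes (-0.33). Among the radial glia genes Fabp7, a fatty acid binding protein also made by ensheathing cells, stood at -1.10 and Prom1 at 2.42 (1.11 with normexp). Ependymal markers (median -1.07, 4 of 8 lower) and meningeal fibroblast markers (median -0.75, 4 of 11 lower and 1 higher) lay below 0, although the summed scaled signal of the meningeal markers was 66.4 in the odor-enriched bulb and 58.7 in the control bulb.

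**Figure D4:**
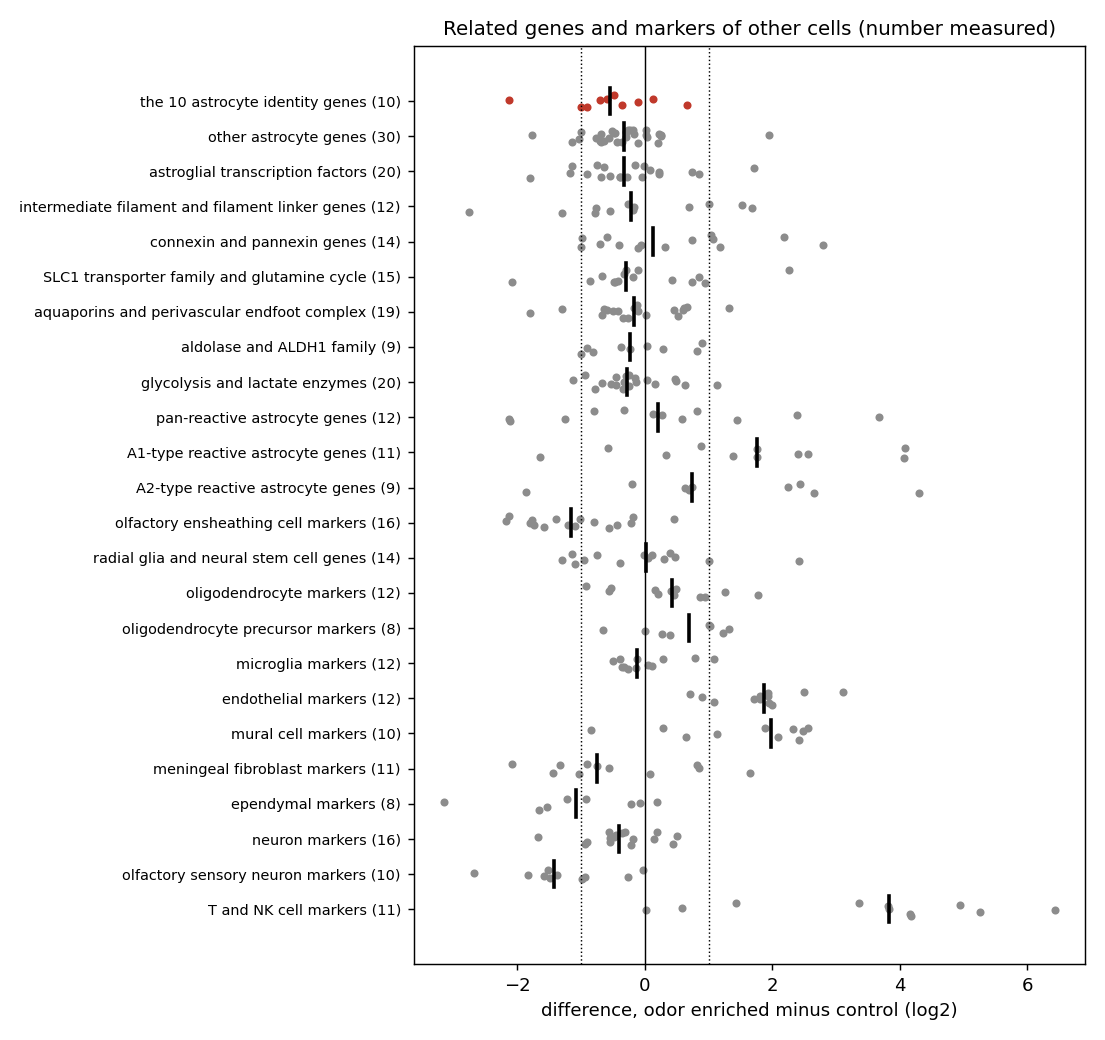
Difference of each measured gene (points, odor enriched minus control, log2 units) and median of each list (bar), for the 10 genes, the related gene lists and markers of other cells, with the number measured in brackets. The 10 genes (median -0.54) and the other astrocyte genes (-0.33) lie between the ensheathing cell markers (-1.15) and the endothelial markers (1.87).

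Gfap was the lowest of the 10 genes under each of the 12 other settings tried, and Aqp4 the highest under all but the one without a filter on dim probes, where Slc1a2 was. The median over all genes shifted by -0.17 when arrays were centred on it and by 0.33 with the series matrix values. Over the 11 settings other than the spike-in scaling, Gfap ranged from -2.30 to -1.79, Aldh1l1 from -1.08 to -0.57, Gjb6 from -0.87 to -0.37 and Gja1 from -0.86 to -0.26, all below 0, and Aqp4 from 0.49 to 1.80. Scaling on the 8 probes for the E1A spike-in transcripts instead moved the median of all genes by -1.76. All 10 members were then at least 2-fold lower, as were 19970 of the 23872 genes. The members ranged from -3.89 for Gfap to -1.10 for Aqp4. Every direction given here is therefore relative to the bulk of the genes on the array.

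**Figure D5:**
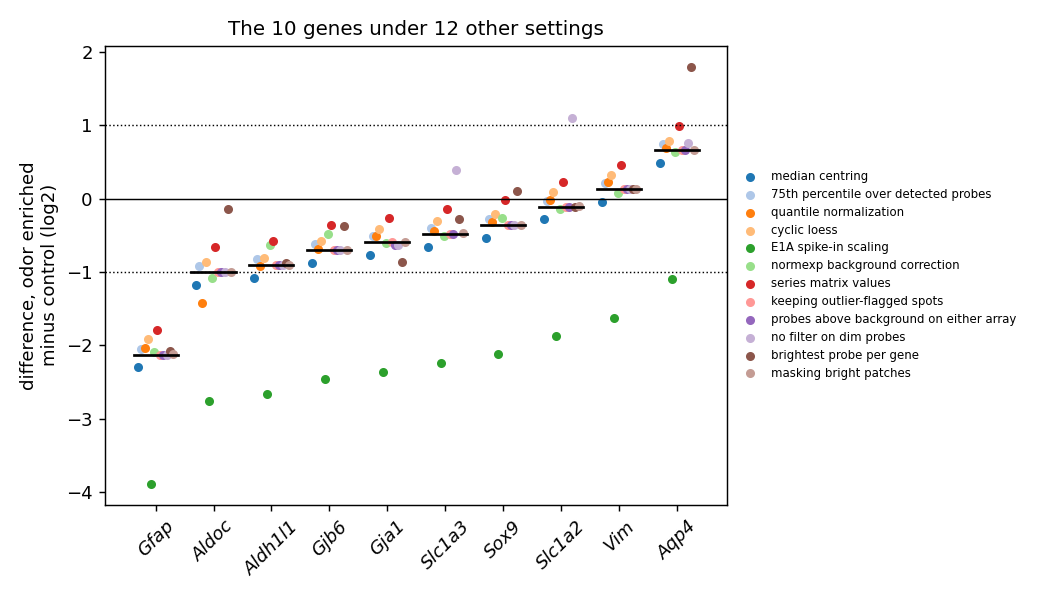
Difference of each of the 10 genes (odor enriched minus control, log2 units) under the main setting (black lines) and 12 others, each drawn in its own colour; dotted lines mark 2-fold. Gfap stays between -2.30 and -1.79 except with the E1A spike-in scaling (-3.89), while Slc1a2, Vim, Slc1a3 and Sox9 have values on both sides of 0 even without that scaling, and Aqp4 is below 0 only with it (-1.10).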

How the data were processed

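The deposited scanner files hold 1 spot per line, and per the file headers their intensity values (processed signals) come from Agilent Feature Extraction 11.5.1.1, after background subtraction and detrending within an array. Probe coordinates are mm9, as the files give them. The deposited series matrix holds log2 values of unstated constant and centring (medians -8.98 for odor enriched and -9.48 for control), so it served as an alternative only.

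Spots marked as outliers were left out (183 on the odor-enriched array and 122 on the control array) and none was saturated. The log2 signals of a probe's spots were averaged and the array's 75th percentile subtracted. Genes were averaged over those of their probes that stood well above background in both samples. No test was possible with 1 array per group, so lists are described by counts at 2-fold and medians. The text names all 10 genes with their probes, and in each of the 23 other lists the 3 highest and 3 lowest genes where it describes them, except for a few that are not reported here. The members, lists and alternatives were chosen with earlier results of these data known.

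Alternatives were other scalings, normexp with an offset of 50, the series matrix, other filters and probe rules, masking of bright patches, and thresholds of 1.5-fold and 3-fold. The tools were limma 3.58.1 in R 4.3.3, and numpy 2.4.6, pandas 2.3.3 and matplotlib 3.10.9 in Python 3.11.15. The steps were also run on simulated data with known changes, which checks the code only. It cannot show how reliable the 2-fold calls are in these samples. Promoters are from RefSeq (GRCm38.p6), with entries for 8 of the 10 genes. The number of arrays limits the precision.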

Additional observations from a re-analysis of the deposited data

How the results depend on the processing

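The number of members at least 2-fold lower (2) was 1 with the percentile over detected probes, cyclic loess, the series matrix values, outlier spots kept, the brightest probe, bright patches masked or a 3-fold threshold, 3 with median centring, 5 at 1.5-fold and 10 with E1A scaling. The number at least 2-fold higher (0) was 1 without a filter on dim probes (Slc1a2), with the brightest probe (Aqp4) and at 1.5-fold (Aqp4). The median of the members ranged from -0.71 to -0.21, and was -2.30 with E1A scaling. Of all genes, the number at least 2-fold lower (1317) was 2061 with median centring, 19970 with E1A scaling, 624 with normexp, 582 with the series matrix, 2380 when 1 array above background sufficed, 2294 with no filter, 3891 at 1.5-fold and 330 at 3-fold. The number at least 2-fold higher (2747) was 374 with E1A scaling, 1258 with normexp, 4474 with the series matrix, 9379 with no filter, 5072 at 1.5-fold and 1286 at 3-fold. The settings that let in dimmer probes compared more genes than the 23872 of the main setting. Their counts therefore have a larger total and cannot be compared directly with the others. With E1A scaling, which moved all genes down, the median of the A1-type genes was -0.0069. Apart from the construction of each setting, the cause was not tested. Without E1A scaling, 106 of the members' values under other settings lay within the 0.63 between probes of a gene and 4 moved further. No paired analysis was possible because each group has 1 sample, and no replicate could be left out. Values near the background, such as those of 5 Gja1 probes, give no usable difference.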
